A study of Homo sapiens with 12 samples.

Results

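The microRNA pathway was followed through 10 genes taken by name: DROSHA, DGCR8, XPO5, DICER1, TARBP2, PRKRA, AGO1, AGO2, AGO3 and AGO4. Each gene was found once among the 58780 gene IDs of the count files, and all 10 passed the minimum of 10 counts summed over the 12 libraries that left 26688 genes for testing. Poly(A)-selected RNA was sequenced with strand information from Flp-In T-REx HEK293 cells, a human line of embryonic kidney origin that carries an integration site and a repressor for inducible transgenes. The 4 groups had 3 libraries each and differed only in the transfected small interfering RNA (siRNA). The control group received negative control siRNA. SAFB1 KD cells received an siRNA against SAFB, the gene of the SAFB1 protein, and SLTM KD cells one against SLTM, in both cases topped up with control siRNA to the total used in triple KD. Triple KD cells received the siRNAs against SAFB (SAFB1), SAFB2 and SLTM together. Cells were collected on day 2 of the knockdown. The study's methods give a number of cells transfected per replicate but not whether replicates came from separate days or passages, so that p-values measure the spread between libraries of 1 cell line. Among these 12 libraries SAFB2 was lowered only in triple KD. Its part in a triple KD change can therefore not be told apart here from that of combined loss. The study also sequenced cells depleted of SAFB2 alone, which are not among these libraries.

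MicroRNAs are made in steps, and the 10 genes cover each of them. The Microprocessor, formed by the ribonuclease DROSHA and its RNA-binding partner DGCR8, releases hairpins from primary transcripts in the nucleus, and exportin 5 (XPO5) carries them to the cytoplasm. There DICER1, with its double-stranded RNA-binding partners TRBP (TARBP2) and PACT (PRKRA), trims the hairpin to a duplex, and an Argonaute protein (AGO1 to AGO4) keeps 1 strand and uses it to find target mRNAs. AGO2 is the Argonaute best known for cutting its targets. The siRNAs used for knockdown enter the same Argonautes. SAFB2 itself has been described as an accessory factor of the Microprocessor, which is one reason to look at this pathway in cells where it is lowered.

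The sense strands of the siRNAs are shown because they set the groups apart and because an siRNA can lower other mRNAs through its seed. The study's methods describe these siRNAs as chemically modified and as reducing off-target effects. Capitals mark the bases that pair with bases 2 to 8 of the guide strand, and the last bases of each are the overhang.
SAFB1 siRNA: ggaccaagaugAUCAGAAatt
SAFB2 siRNA: ggacggucgugAUGGAUAatt
SLTM siRNA: gcauuagaauaAUUCGUGatt

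The knockdowns were visible in every library. Mean SAFB level was 232 ± 2.27 CPM (± SD, n = 3) in control, where CPM is a library's count scaled to a common depth with TMM factors, and it was 45.3 ± 0.905 in SAFB1 KD and 38.2 ± 1.57 in triple KD. SLTM was at 116 ± 1.17 CPM in control, 20.5 ± 1.88 in SLTM KD and 25.0 ± 2.15 in triple KD. SAFB2 was at 126 ± 2.49 CPM in control and 29.1 ± 1.12 in triple KD, but at 209 ± 3.76 in SAFB1 KD. The libraries held 56856228 to 75533510 counts in genes. Of 5 genes that HEK293 cells express (PAX2, LHX1, EYA1, NEFL, NEFM), each had counts in all 12 libraries, but all 5 fell in triple KD, and their summed level was 216 to 222 CPM in control, 241 to 251 in SAFB1 KD, 202 to 206 in SLTM KD and 166 to 168 in triple KD. Markers of leukocytes and squamous epithelium summed to less than 1 CPM in each library. Those of colon epithelium summed to 27.6 to 33.5 CPM and those of fibroblasts to 11.6 to 13.95 CPM, and 1 gene carried most of each sum, CDX2 (28.7 CPM in control) and COL1A1 (12.95 CPM). CDX2 was higher in SAFB1 KD (31.8 CPM, log2 fold change 0.15, adjusted p = 0.00703), and CDH17 was called higher in triple KD at 0.0561 CPM (adjusted p = 0.0394). In cultured cells profiled in bulk, fewer cells with a transcript and less of it per cell cannot be told apart. The part of these shifts in the changes below was not tested.

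In triple KD, 7 of the 10 genes changed, and the steps of the pathway moved in different directions. DROSHA, DGCR8, DICER1 and AGO3 rose, XPO5, TARBP2 and AGO2 fell, and PRKRA, AGO1 and AGO4 did not pass the test. All changes were small, between a log2 fold change of -0.15 for XPO5 and 0.25 for DGCR8, with a median over the 10 genes of 0.02. A gene was called changed at an adjusted p under 0.05 in edgeR's quasi-likelihood test, with p-values adjusted by Benjamini-Hochberg across the whole table. The knockdown changed 40.3% of all genes, and among the 6293 genes as abundant as these (29.1 to 233 CPM) it changed 72.7%, and the size of the log2 fold change had a median of 0.14 there against 0.12 for the 10. The count of 7 was thus close to what genes of this abundance showed in these cells. The 3 libraries of triple KD lay apart from the 3 of control for each of the 7 called genes and overlapped them for the other 3, where 48.1% of all genes lay apart in this way. No gene of the 10 changed by more than 2-fold (edgeR glmTreat and DESeq2, 0 of 10, with 0 at an unadjusted p under 0.05 in edgeR), whereas 0.955% of all genes did.

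**Figure D1:**
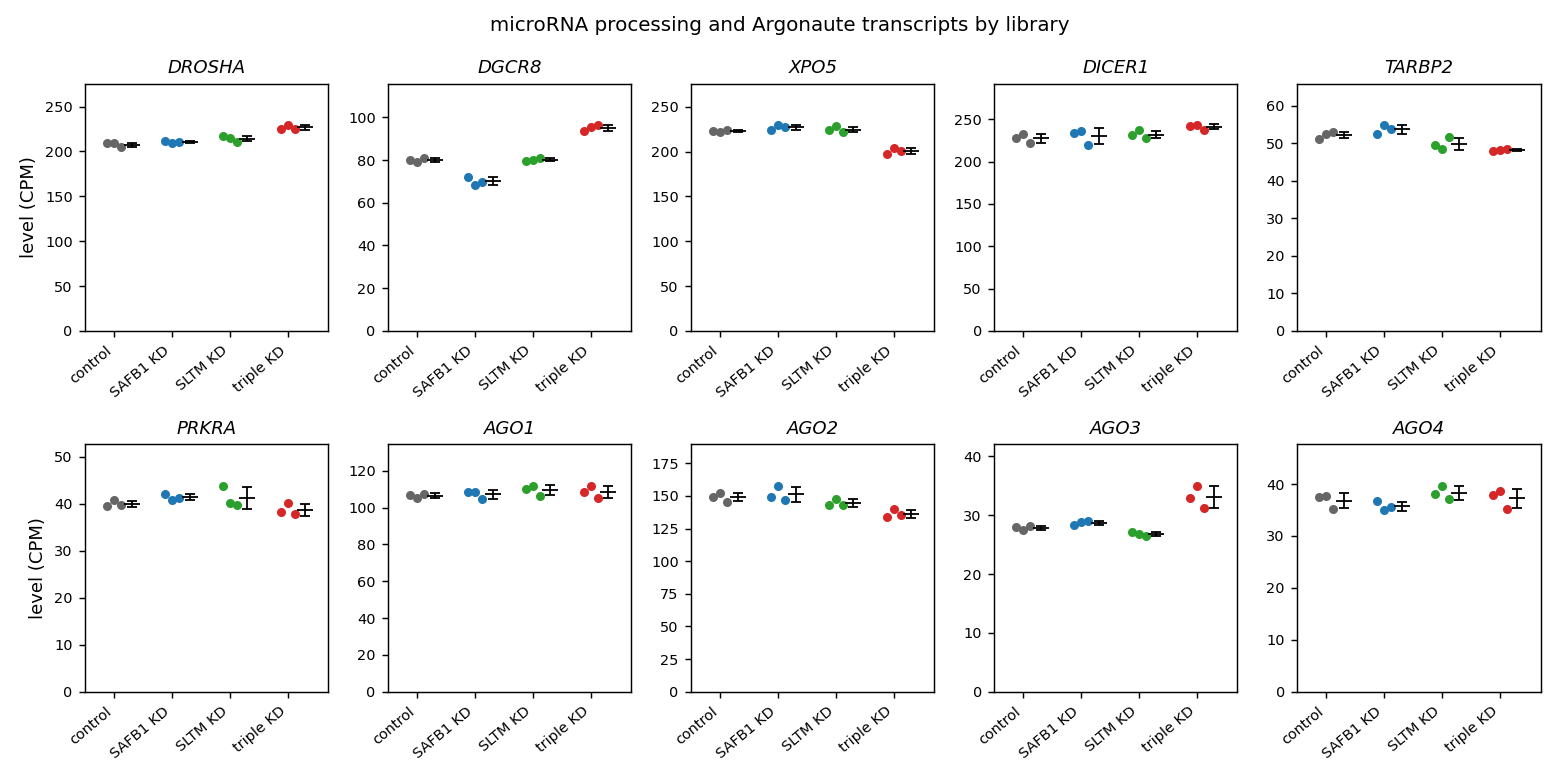
Level of each of the 10 transcripts in CPM (vertical axes, starting at 0) in the 12 libraries, with 1 point per library and the mean ± SD (n = 3) beside it. DGCR8 is the one transcript whose 3 libraries all sit below those of control in SAFB1 KD (68.4 to 72.1 CPM) and all above them in triple KD (93.4 to 96.5 CPM).

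DGCR8 was lower than control in SAFB1 KD and higher in triple KD. Its level was 80.0, 79.2 and 80.7 CPM in the control libraries. In SAFB1 KD it was 72.1, 68.4 and 69.6 CPM, in SLTM KD 79.6, 80.1 and 80.9 CPM, and in triple KD 93.4, 95.3 and 96.5 CPM. The SAFB1 KD libraries were all below control, the triple KD libraries were all above it, and those of SLTM KD overlapped it. The log2 fold change against control was -0.19 ± 0.03 (SE, edgeR adjusted p = 1.65e-07) in SAFB1 KD and 0.25 ± 0.03 (adjusted p = 1.41e-12) in triple KD. In SLTM KD it was 0.00, with a 95% interval from -0.05 to 0.06. DGCR8 ranged from 0.24 to 0.28 in triple KD and from -0.22 to -0.18 in SAFB1 KD over 21 alternative analyses, and both calls held in each. Between triple KD and SAFB1 KD the difference was 0.44 ± 0.03 (adjusted p = 4.42e-22), a fold of 1.36.

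DGCR8 lies at chr22:20080221-20111877 on the plus strand (GRCh38) and carries microRNA hairpins in its own second exon, which the Microprocessor is known to cut, so that DROSHA and DGCR8 together lower the DGCR8 mRNA. The mature microRNAs of these hairpins are shown because they mark the position of that cut in the transcript with the highest fold change in triple KD. Sequences are from RefSeq (GRCh38.p14), with the seed, bases 2 to 8, in capitals.
hsa-miR-3618: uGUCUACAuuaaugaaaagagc
hsa-miR-1306-5p: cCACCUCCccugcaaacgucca
hsa-miR-1306-3p: aCGUUGGCucugguggug
The first lies at chr22:20085797-20085818 in the 5′ untranslated part of exon 2, the second at chr22:20086072-20086093 and the third at chr22:20086112-20086129, both in its coding part, all on the plus strand. The 3 seeds differ from each other. Both hairpin genes, MIR3618 and MIR1306, had 0 counts in all 12 libraries. The counting left out reads that reach more than 1 gene on the same strand, and both hairpins lie wholly within the exon of DGCR8, so that the cut cannot be measured from these counts.

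DROSHA, the catalytic partner, rose in triple KD, where it was also higher than in either single knockdown. It stood at 209, 209 and 205 CPM in control and at 225, 229.7 and 225 CPM in triple KD, without overlap. The change was 0.13 ± 0.02 on the log2 scale (adjusted p = 4.47e-07). In SAFB1 KD its libraries were at 211, 209.8 and 210.3 CPM, a log2 fold change of 0.02 with a 95% interval from -0.02 to 0.06. In SLTM KD they were at 217, 215 and 211 CPM. That difference, 0.04 ± 0.02, had an unadjusted p of 0.0355 and did not pass the adjusted test, except under upper-quartile scaling, where it was 0.06 (adjusted p = 0.0368).

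XPO5, the export receptor of hairpin precursors, had the lowest fold change of the 10 in triple KD. The control libraries held 223, 222 and 224 CPM, and those of triple KD 198, 204 and 200.2 CPM, with no overlap. The log2 fold change was -0.15 ± 0.02 (adjusted p = 4.68e-09) and lay between -0.16 and -0.12 over the 21 alternatives. Levels in the single knockdowns were 224, 229.9 and 227 CPM in SAFB1 KD and 224, 228 and 222 CPM in SLTM KD. Neither passed the test, with 95% intervals from -0.02 to 0.07 and from -0.03 to 0.05.

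The XPO5 gene, at chr6:43522334-43576038 on the minus strand, holds a processed pseudogene, ENSG00000219470, on its own strand. The pseudogene spans 882 bases at chr6:43538822-43539703 and sits in the longest XPO5 intron, 12563 bases at chr6:43534008-43546570. It had 44, 31 and 37 counts in the control libraries and 44, 66 and 83 counts in triple KD, or 0.702, 0.416 and 0.490 CPM against 0.770, 0.953 and 1.31 CPM. The groups did not overlap, and the pseudogene rose by a log2 fold change of 0.94 ± 0.21 (adjusted p = 1.58e-04) while its host fell. Over 21 alternatives it lay between 0.71 and 1.16 and passed in each. In SAFB1 KD (0.527 ± 0.119 CPM) and SLTM KD (0.522 ± 0.0771 CPM) it did not pass the test against control (0.536 ± 0.149 CPM). A count of 500 over the 12 libraries limits how finely this gene can be read, and reads of a processed pseudogene and of its parent gene can be confused. Counts per gene do not say whether the added reads were spliced to XPO5 exons. POLR1C, a subunit shared by RNA polymerases I and III that overlaps XPO5 exons on the opposite strand by 348 bases, fell as well, from 50.95 ± 0.629 to 45.9 ± 0.894 CPM (log2 fold change -0.15 ± 0.03, adjusted p = 1.06e-04).

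**Figure D2:**
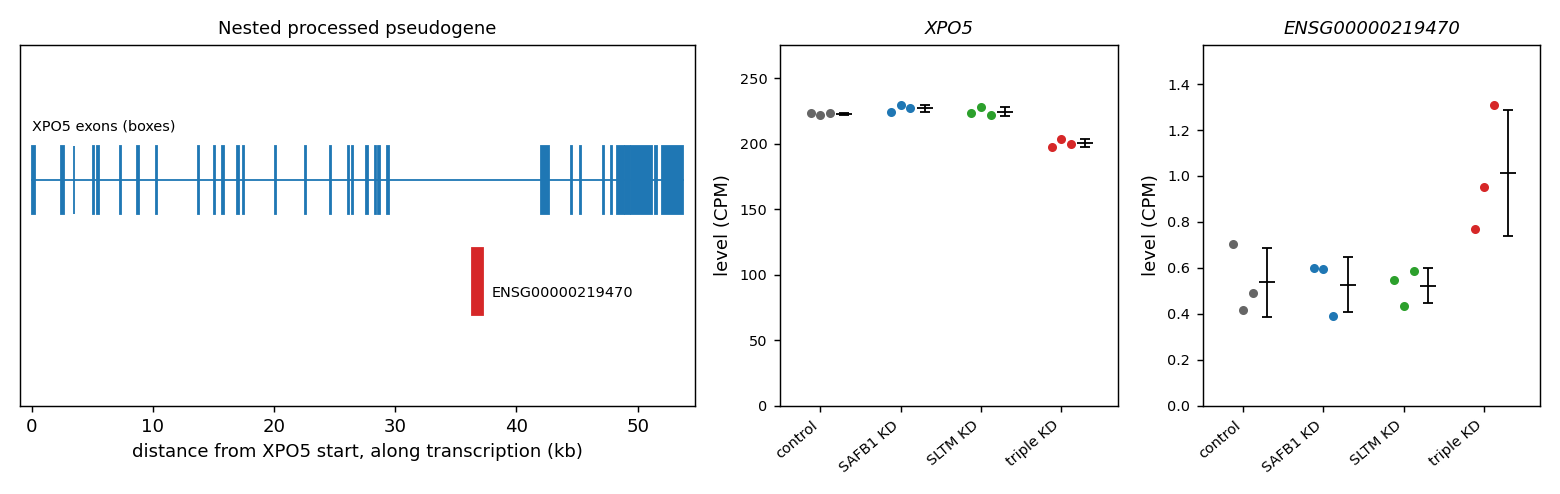
Left, exons of XPO5 (boxes, all annotated transcripts merged) and the nested pseudogene ENSG00000219470 by distance in kb along the direction of transcription. Middle and right, levels of XPO5 and of the pseudogene in CPM per library with the mean ± SD (n = 3), where XPO5 is at 198 to 204 CPM and the pseudogene at 0.770 to 1.31 CPM in triple KD.

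At the Dicer step, DICER1 and its partner TARBP2 changed in opposite directions in triple KD. DICER1 was at 228, 233 and 222 CPM in control and at 242, 243 and 238 CPM in triple KD. These libraries did not overlap, and the log2 fold change was 0.08 ± 0.02 (adjusted p = 0.00195). TARBP2 was at 51.3, 52.4 and 53.0 CPM in control and at 48.0, 48.2 and 48.5 CPM in triple KD, again without overlap. It fell by 0.11 on the log2 scale, with an SE of 0.03 (adjusted p = 0.00146). PRKRA, the other double-stranded RNA-binding partner, was at 39.5, 40.7 and 39.8 CPM in control and at 38.3, 40.2 and 37.7 CPM in triple KD, where the groups overlapped. Its log2 fold change of -0.05 had a 95% interval from -0.12 to 0.02.

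The single knockdowns left the Dicer-step transcripts within narrow limits. SAFB1 KD libraries held 234, 237 and 219 CPM of DICER1, 52.5, 54.95 and 53.8 CPM of TARBP2 and 42.0, 40.9 and 41.1 CPM of PRKRA. SLTM KD libraries held 231, 237 and 228 CPM of DICER1, 49.5, 48.5 and 51.7 CPM of TARBP2 and 43.9, 40.2 and 39.7 CPM of PRKRA. None of these passed the test against control. TARBP2 in SLTM KD came nearest, at -0.07 ± 0.03 with an unadjusted p of 0.0334. Without SLTM KD replicate 3, the library with the highest TARBP2 of its group, it was at -0.10 (adjusted p = 0.0490).

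Of the Argonautes, AGO3 rose and AGO2 fell in triple KD, and AGO1 and AGO4 did not pass the test. AGO3, the least abundant of the 10, was at 28.0, 27.5 and 28.1 CPM in control and at 32.9, 35.03 and 31.3 CPM in triple KD. The groups did not overlap, and the log2 fold change of 0.25 ± 0.04 (adjusted p = 8.11e-08) was as large as that of DGCR8. Its SD in triple KD was 1.88 CPM, against 0.321 CPM in control. AGO2 was at 149, 152 and 146 CPM in control and at 134, 139.8 and 136 CPM in triple KD, a log2 fold change of -0.13 ± 0.02 without overlap (adjusted p = 1.40e-05).

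AGO1 and AGO4 overlapped between the groups. AGO1 was at 107, 105 and 108 CPM in control and at 108, 112 and 105 CPM in triple KD, with a 95% interval of the log2 fold change from -0.02 to 0.08. It passed the test under upper-quartile scaling alone (0.06, adjusted p = 0.0409) of 21 alternatives. AGO4 was at 37.5, 37.7 and 35.1 CPM in control and at 38.0, 38.6 and 35.2 CPM in triple KD, with an interval from -0.05 to 0.09. AGO4 (chr1:35808016-35857890), AGO1 (chr1:35869808-35930532) and AGO3 (chr1:35930718-36072500) stand in this order on the plus strand of chromosome 1, and AGO3 begins just after AGO1 ends. Of these neighbours only AGO3 passed the test in triple KD, and the differences between their changes were not tested. No Argonaute passed the test in a single knockdown. AGO3 was at 28.3, 28.8 and 29.03 CPM in SAFB1 KD and at 27.1, 26.8 and 26.4 CPM in SLTM KD, and AGO2 at 149, 158 and 147 CPM and at 143, 148 and 143 CPM. AGO1 was at 109, 109 and 105 CPM in SAFB1 KD and at 110.3, 112 and 106 CPM in SLTM KD. AGO4 was at 36.7, 35.02 and 35.5 CPM and at 38.1, 39.7 and 37.1 CPM. None of the 95% intervals of these log2 fold changes against control reached 0.14 in either direction.

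**Figure D3:**
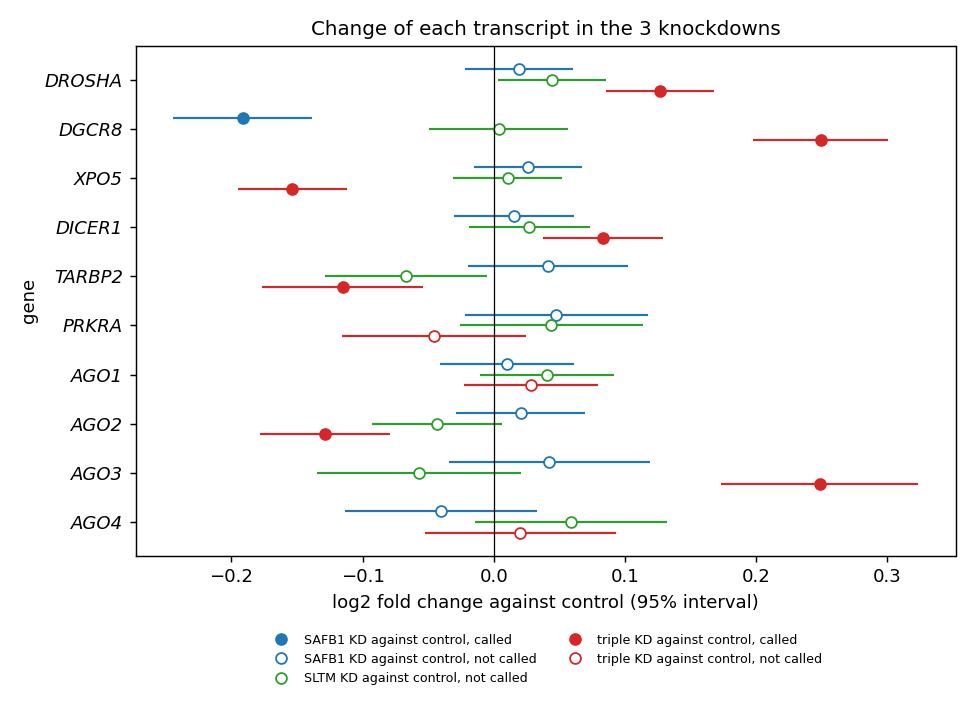
Log2 fold change against control (horizontal axis) with its 95% interval for each gene in SAFB1 KD (blue), SLTM KD (green) and triple KD (red), where filled points passed the edgeR test. Red points are filled for 7 genes, blue for DGCR8 alone, and no green point is filled.

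SAFB1 KD changed 1 gene of the 10, DGCR8, where 9.66% of all genes and 22.1% of those as abundant as the 10 changed. The libraries of 5 genes did not overlap those of control in SAFB1 KD, namely DROSHA, DGCR8, XPO5, PRKRA and AGO3, where 25.2% of all genes did not overlap, and the 4 others than DGCR8 had log2 fold changes of 0.02 to 0.05. SLTM KD changed 0 of the 10 in edgeR, DESeq2 and limma-voom, with 2 at an unadjusted p under 0.05. There, 9.26% of all genes and 21.9% of those as abundant as the 10 changed. The libraries of DROSHA and AGO3 did not overlap those of control, as was so for 23.9% of all genes. Over all genes called in SLTM KD, 38.9% were higher, and 57.5% under upper-quartile scaling.

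Triple KD differed from SAFB1 KD in 8 of the 10 genes, where 34.9% of all genes and 66.2% of those as abundant differed. DGCR8 (0.44), AGO3 (0.21), DROSHA (0.11) and DICER1 (0.07) were higher on the log2 scale. XPO5 (-0.18), TARBP2 (-0.16), AGO2 (-0.15) and PRKRA (-0.09) were lower. The libraries did not overlap for any of the 8, nor for 43.2% of all genes. DICER1 was not called without SAFB1 KD replicate 3 (0.04, adjusted p = 0.278). PRKRA, at an adjusted p of 0.0320, was lost in 9 of the 21 alternatives: under upper-quartile scaling (-0.06, adjusted p = 0.196), in DESeq2 (adjusted p = 0.0689), and without control replicates 2 or 3, SAFB1 KD replicates 1 or 2, SLTM KD replicate 2, or triple KD replicates 1 or 3 (adjusted p from 0.0508 to 0.187). AGO4 was called in addition under upper-quartile scaling (0.09, adjusted p = 0.0360) and without triple KD replicate 3 (0.10, adjusted p = 0.0461).

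Triple KD differed from SLTM KD in 7 genes, beside 36.3% of all genes and 67.9% of those as abundant. DGCR8 (0.25), AGO3 (0.31), DROSHA (0.08) and DICER1 (0.06) were higher, and XPO5 (-0.16), PRKRA (-0.09) and AGO2 (-0.08) were lower. Libraries overlapped for PRKRA alone of these 7, and 44.1% of all genes did not overlap. Its call (adjusted p = 0.0405) was lost in 11 of 21 alternatives. It was -0.04 (adjusted p = 0.450) without SLTM KD replicate 1, and it was also lost without control replicates 2 or 3, SAFB1 KD replicate 1, or triple KD replicates 1 or 3 (adjusted p from 0.0556 to 0.182). The other losses were under RLE and upper-quartile scaling, in DESeq2, in limma-voom and with only the compared libraries in the fit (adjusted p from 0.0584 to 0.0865). DICER1 (adjusted p = 0.0484) was lost in 5, with an adjusted p of 0.129 without SLTM KD replicate 1, 0.126 without SLTM KD replicate 3, 0.106 and 0.0830 without triple KD replicates 1 and 2, and 0.0527 without control replicate 1. AGO2 was lost without SLTM KD replicate 2 (-0.06, adjusted p = 0.0684) and without triple KD replicate 1 (-0.07, adjusted p = 0.0522). Without triple KD replicate 1, 4 genes were called in place of 7.

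SAFB1 KD and SLTM KD differed in 2 genes, beside 16.0% of all genes and 35.5% of those as abundant. DGCR8 was lower in SAFB1 KD by a log2 fold change of -0.20 ± 0.03 (adjusted p = 8.19e-08). TARBP2 was higher there by 0.11 ± 0.03 (adjusted p = 0.00904), which was lost without SAFB1 KD replicate 2 (0.09, adjusted p = 0.0848) and without SLTM KD replicate 2 (0.08, adjusted p = 0.0896). AGO4, at -0.10 with an unadjusted p of 0.00966, was not called, but passed without control replicate 3, SAFB1 KD replicate 1, SLTM KD replicate 3 or triple KD replicate 3 (adjusted p from 0.0223 to 0.0469), under upper-quartile scaling (0.0170) and with the filterByExpr filter (0.0439). AGO2, at 0.06, was not called, but passed without SAFB1 KD replicate 3 (0.08, adjusted p = 0.0190) or SLTM KD replicate 2 (0.08, adjusted p = 0.0473). With the replicate number as a block, AGO2 (adjusted p = 0.0156), AGO4 (0.0203) and AGO3 (0.10, adjusted p = 0.0477) were called as well, which made 5 genes.

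The triple KD change was also set against the changes of both single knockdowns added together on the log2 scale, a contrast in which 21.4% of all genes and 46.8% of those as abundant as the 10 departed from the sum. The 5 of 10 called here were close to the latter share. DGCR8 departed upwards by 0.44 ± 0.04 (adjusted p = 5.22e-15) and AGO3 by 0.26 ± 0.05 (adjusted p = 1.16e-04). XPO5 departed downwards, at -0.19 ± 0.03 (adjusted p = 4.77e-07). PRKRA (-0.14, adjusted p = 0.0376) and AGO2 (-0.11, adjusted p = 0.0222) passed the test with little margin. AGO2 was lost without control replicate 3, SAFB1 KD replicate 2, SLTM KD replicate 2 or triple KD replicate 1, at -0.08 to -0.07 (adjusted p from 0.141 to 0.196), and under upper-quartile scaling (-0.09, adjusted p = 0.0551). PRKRA was lost in DESeq2 (adjusted p = 0.0600), in limma-voom (0.0547), under upper-quartile scaling (0.0645), with no low-count filter (0.0643) and when any 1 of 8 libraries was left out, with the smallest value, -0.09 (adjusted p = 0.245), without SLTM KD replicate 1. DROSHA was called in addition without control replicate 3 (0.09, adjusted p = 0.0377), under upper-quartile scaling (0.08, adjusted p = 0.0460) and in DESeq2 (0.07, adjusted p = 0.0492). The other 5 genes did not pass, with intervals of the departure from 0.00 to 0.12 for DROSHA, -0.02 to 0.11 for DICER1, -0.18 to 0.00 for TARBP2, -0.09 to 0.05 for AGO1 and -0.10 to 0.11 for AGO4.

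Levels between genes were compared per kb of merged exons. In control, DROSHA stood at 26.7 ± 0.287 and XPO5 at 26.3 ± 0.112 CPM per kb (SD, n = 3), with overlapping libraries. TARBP2 followed at 12.8 ± 0.216, then DGCR8 at 10.9 ± 0.103, DICER1 at 10.3 ± 0.237 and AGO2 at 9.41 ± 0.212 CPM per kb. AGO1 (7.59 ± 0.0877), AGO4 (4.95 ± 0.191), PRKRA (3.32 ± 0.0511) and AGO3 (1.32 ± 0.0152) were lower. Neighbours in this order did not overlap, apart from DROSHA and XPO5. Merged exons overstate the length of genes with many alternative ends. With the longest annotated transcript as the length, XPO5 came first at 41.9 CPM per kb, ahead of DROSHA at 38.3, DICER1 (17.9) passed DGCR8 (17.0), and PRKRA (10.3) stood beside AGO2 (10.2).

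Summed per kb, the 4 Argonaute transcripts were made up of 40.4% ± 0.445 AGO2, 32.6% ± 0.777 AGO1, 21.3% ± 0.545 AGO4 and 5.66% ± 0.128 AGO3 in control (SD, n = 3). In triple KD the shares were 37.6% ± 0.741 for AGO2, 33.7% ± 0.0624 for AGO1, 21.9% ± 0.566 for AGO4 and 6.82% ± 0.183 for AGO3. AGO2 was thus the most abundant Argonaute transcript and AGO3 the least in both groups. A gain of AGO3 by a fold of 1.19 left it below AGO4.

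Genes that overlap the 10 on the opposite strand were counted separately by strand. TRMT2A, a tRNA methyltransferase gene that touches the end of DGCR8, was at 106 ± 1.998 CPM in control and 107 ± 0.747 in SAFB1 KD, where DGCR8 fell. In triple KD it rose to 116 ± 1.43 CPM (0.13 ± 0.02, adjusted p = 1.68e-05). An unnamed antisense RNA at the start of TARBP2, ENSG00000270175, fell in triple KD from 4.37 ± 0.560 to 3.36 ± 0.0758 CPM (-0.37 ± 0.09, adjusted p = 5.22e-04). CHROMR, a long noncoding RNA antisense to PRKRA, rose from 4.36 ± 0.396 to 5.28 ± 0.716 CPM (0.27 ± 0.09, adjusted p = 0.00860), a call lost without control replicate 2 (0.20, adjusted p = 0.104) and without triple KD replicate 1 (0.16, adjusted p = 0.197). DICER1-AS1, antisense to the start of DICER1, went from 3.96 ± 0.232 to 3.35 ± 0.0556 CPM (-0.24 ± 0.09, adjusted p = 0.0225), and its call was lost in 6 of 21 alternatives, among them DESeq2 (adjusted p = 0.0652), control replicates 1 and 3 left out (0.0796 and 0.0747) and triple KD replicates 2 and 3 left out (0.0504 and 0.0662). ENSG00000243762, antisense to the end of DGCR8, rose from 0.0845 ± 0.0342 to 0.228 ± 0.0620 CPM (1.43 ± 0.46, adjusted p = 0.00974) on 109 counts over the 12 libraries, a call lost without control replicate 3 (adjusted p = 0.0656) and without triple KD replicate 2 (adjusted p = 0.0580).

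The letters that pair with the siRNA seeds were searched in the 3′ untranslated region of the canonical transcript of each gene, on the transcript strand. DGCR8 holds AUCAGAA, the SAFB1 siRNA word, at 1 place in 1764 bases, as do 17.3% of the 2556 coding genes with such a region of like length (within 20%). It was the only transcript of the 10 called lower in SAFB1 KD, and it was called higher in triple KD, which received the same siRNA. AGO1 (2 matches, beside 70.6% of genes of like length) and AGO3 (1 match, 91.3%) hold the same word. Neither passed the test in SAFB1 KD. AUGGAUA, the SAFB2 siRNA word, occurs in XPO5 (1 match, beside 8.20% of genes of like length), DICER1 (1, 22.6%), AGO2 (1, 64.4%) and AGO3 (3, 80.4%). Of these, XPO5 and AGO2 fell and DICER1 and AGO3 rose in triple KD, the one group given this siRNA. AUUCGUG, the SLTM siRNA word, was found in none of the 10. A match of letters is a description, and whether any siRNA acted on these transcripts was not tested.

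The genes whose levels most resembled those of DGCR8 over the 12 libraries were ENOSF1, WDR76, MAPKAP1, PRUNE2 and ROBO1, with Pearson's r of 0.969, 0.969, 0.968, 0.968 and 0.967 among 12124 genes at 3 CPM or more. For XPO5 they were DCAF1 (0.988), KIAA0586 (0.987), AP2B1 (0.986), TNFRSF10D (0.986) and GUCY1B1 (0.985). These values describe likeness only, since the 12 libraries share their groups and the triple KD libraries stand apart.

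Around the 10 genes, 69 further genes of the pathway were listed by role, of which 67 were tested. In triple KD, 27 rose, 18 fell and 22 did not pass the test, with a median log2 fold change of 0.02 beside 0.00 over all genes. In SAFB1 KD 6 rose and 4 fell, beside 9.66% of all genes called and 22.1% of those as abundant as the 10. In SLTM KD 4 rose and 11 fell, beside 9.26% of all genes and 21.9% of those as abundant. For triple KD the share called was 40.3% over all genes and 72.7% among genes as abundant as the 10. The list spans a wider range of abundance than the 10 genes, so that neither share is matched to it. The triple KD counts of each list below are to be read beside both shares.

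Among 13 Microprocessor cofactors, 6 rose and 4 fell in triple KD (median 0.04). SMAD3, a TGF-β signal transducer that can bind the Microprocessor, rose from 40.5 ± 0.654 to 60.8 ± 1.15 CPM, a log2 fold change of 0.59 ± 0.03 (adjusted p = 1.07e-24). In SAFB1 KD SMAD3 was higher by 0.10 (adjusted p = 0.0414), a call lost in 12 of 21 alternatives. SRSF3, a splicing factor that recognises a motif beside many hairpins, fell by 0.22 in triple KD (adjusted p = 6.45e-15). SRSF3 was also lower in SLTM KD (-0.13, adjusted p = 1.99e-06). The cap-binding subunits NCBP2 (-0.24, adjusted p = 3.22e-10) and NCBP1 (-0.16, adjusted p = 5.70e-08) fell in triple KD. ERH, a small protein that joins DGCR8 in the Microprocessor, fell in SLTM KD, from 143 ± 2.68 to 123 ± 2.77 CPM (-0.21 ± 0.02, adjusted p = 2.22e-09), and was at 144 ± 4.87 CPM in SAFB1 KD and 139 ± 3.16 in triple KD, where it did not pass the test. ERH was singled out after its values were seen.

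Of 10 tested genes that act on hairpin export or at the Dicer step, 2 rose and 3 fell in triple KD (median -0.02). RAN, the GTPase that XPO5 needs to hold its cargo, fell from 921 ± 6.94 to 706 ± 5.10 CPM (-0.38 ± 0.02, adjusted p = 2.24e-28). RAN also fell in SAFB1 KD, to 879 ± 6.23 CPM (-0.07 ± 0.02, adjusted p = 0.00554). LIN28B, which blocks let-7 maturation, fell in triple KD from 172 ± 2.11 to 137 ± 4.41 CPM (-0.33, adjusted p = 2.67e-17). LIN28B was also lower in SLTM KD (-0.11, adjusted p = 0.00227), a call lost in 1 of 21 alternatives. In triple KD the nuclear pore protein NUP153 rose (0.14, adjusted p = 7.36e-08), and TENT2, a terminal nucleotidyltransferase that extends small RNAs, fell (-0.13, adjusted p = 7.17e-04). TENT2 was also lower in SLTM KD (-0.10, adjusted p = 0.0427), a call lost in 7 of 21 alternatives.

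The 9 chaperone genes that help load Argonautes had the lowest median of these lists in triple KD, -0.11, with 2 that rose and 5 that fell. HSPA8, the constitutive HSP70, fell from 1994 ± 31.5 to 1553 ± 26.0 CPM (-0.36 ± 0.02, adjusted p = 3.14e-27). HSPA8 was also lower in SLTM KD (-0.06, adjusted p = 0.0145), a call lost in 3 of 21 alternatives. In triple KD the cochaperones FKBP4 (-0.17, adjusted p = 2.77e-12) and PTGES3 (-0.14, adjusted p = 6.63e-09) fell, and HSP90AB1, the constitutive HSP90, rose (0.13, adjusted p = 5.43e-11). PTGES3 was also lower in SLTM KD (-0.10, adjusted p = 6.47e-05). HSP90AB1 was higher in SAFB1 KD (0.05, adjusted p = 0.0458), a call lost in 15 of 21 alternatives.

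Of 22 genes that carry out silencing downstream of Argonaute, 11 rose and 5 fell (median 0.05). CNOT7, a deadenylase of the CCR4-NOT complex, rose from 115 ± 1.77 to 144 ± 0.973 CPM in triple KD (0.32 ± 0.02, adjusted p = 5.91e-18) but fell to 107 ± 2.74 CPM in SAFB1 KD (-0.11 ± 0.02, adjusted p = 8.67e-04). PAN2, the catalytic subunit of the other deadenylase complex, fell from 64.3 ± 1.17 to 49.3 ± 1.53 CPM (-0.38 ± 0.03, adjusted p = 9.51e-17). The cap-binding repressor EIF4E2 (-0.26, adjusted p = 7.16e-14) and the LIM protein LIMD1 (-0.30, adjusted p = 2.10e-13) fell too in triple KD. EIF4E2 was also lower in SAFB1 KD (-0.10, adjusted p = 0.00273).

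Of 9 tested genes of microRNA and Argonaute turnover, 5 rose and 1 fell in triple KD (median 0.07). ZSWIM8, the ubiquitin ligase adaptor through which target-directed decay of microRNAs removes Argonautes, rose from 56.6 ± 1.43 to 70.2 ± 0.938 CPM (0.31 ± 0.03, adjusted p = 1.85e-14), and in SLTM KD to 62.2 ± 1.14 CPM (0.13 ± 0.03, adjusted p = 6.98e-04). The exonuclease XRN2 (0.10, adjusted p = 4.69e-05) and the nuclease SND1 (0.07, adjusted p = 0.00248) rose, and the mitochondrial exoribonuclease PNPT1 (-0.10, adjusted p = 0.00152) fell. The germline PIWI Argonautes were near 0, and of these 4 genes PIWIL4 passed the test, at 0.0614 ± 0.0205 CPM in control and 0.180 ± 0.0643 in triple KD (adjusted p = 0.0172). That call was lost without control replicate 3 (adjusted p = 0.0843) and without triple KD replicate 3 (adjusted p = 0.130).

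**Figure D4:**
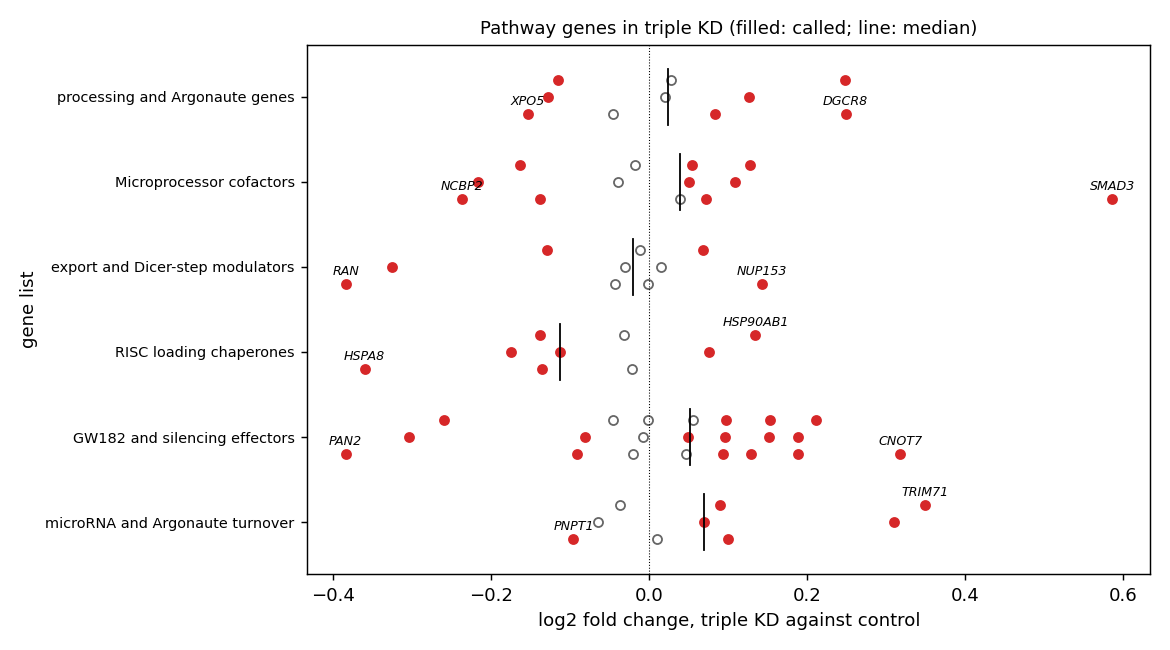
Change in triple KD relative to control on the log2 scale (horizontal axis) of the 10 genes and of 5 lists of pathway genes, with 1 point per gene, filled where the edgeR test passed, and a line at the median of each list. SMAD3 lies farthest to the right at 0.59, and the chaperone list has its median at -0.11.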

How the data were processed

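Counts per gene were deposited by the authors for 12 poly(A) RNA libraries, 1 file each. Per the study's methods, reads were trimmed, mapped to GRCh38 with STAR 2.7.9a in a pair of passes on GENCODE 29, and counted per gene on the reverse strand, with reads reaching several genes left out. The counts are raw whole numbers. Here, edgeR 4.0.16 (R 4.3.3) with TMM factors and 1 quasi-likelihood fit of all 12 libraries gave two-sided tests for 7 contrasts on the 26688 genes with at least 10 counts in sum, and Benjamini-Hochberg adjustment ran over all of them. The biological coefficient of variation was 2.14%, and replicates differed by more than sampling noise (chi-square per degree of freedom 1.92 to 4.09). Coordinates and lengths came from GENCODE 44, which matched 99.03% of gene IDs. Alternatives covered scaling (RLE, upper quartile), the low-count filter, DESeq2 1.42.0, limma-voom 3.58.1, the libraries in the fit, a replicate block and each library left out. 1 alternative was chosen after seeing the data: mitochondrially encoded genes (3.31% to 4.51% of counts, highest in triple KD) left out of the scaling. The 10 genes and the lists were chosen with earlier results of these data known. Named beside the 10 were the up to 4 called genes of each list with the smallest adjusted p in triple KD, genes overlapping the 10, and the 5 genes most like the called genes with the highest and lowest change. The script was tested on simulated data. 1 HEK293 marker of the list is not reported here.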

Additional observations from a re-analysis of the deposited data

Results flagged for a closer look

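For 5 of the 10 genes, beside 21.4% of all genes and 46.8% of those as abundant, the change in triple KD departed from the changes of both single knockdowns added together, in a test of that difference (edgeR quasi-likelihood, Benjamini-Hochberg over all genes). DGCR8 departed by 0.44 on the log2 scale (adjusted p = 5.22e-15), with SAFB1 KD below and triple KD above control in all 3 libraries of each. AGO3 departed by 0.26 (adjusted p = 1.16e-04) and XPO5 by -0.19 (adjusted p = 4.77e-07). AGO2 departed by -0.11 (adjusted p = 0.0222), and PRKRA by -0.14 (adjusted p = 0.0376), a call that held in 8 of 20 alternatives. SAFB2 was lowered only in triple KD and was higher in SAFB1 KD than in control, so that its part cannot be told apart.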

How the results depend on the processing

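Against control, the 7 calls in triple KD and the 1 in SAFB1 KD held under each of 21 alternatives, and no called value of the 10 genes changed sign in any of the 7 comparisons. In triple KD against control, 209 of 210 gene-by-alternative values kept their side of the threshold. The number of the 10 genes called moved as follows. In SLTM KD it was 0, with 1 under upper-quartile scaling and 0 to 1 with each library left out. For triple KD against SLTM KD it was 7, with 4 to 7 when a library was left out, and 4 without triple KD replicate 1. For SAFB1 KD against SLTM KD it was 2, with 1 to 3 when a library was left out (1 without SAFB1 KD replicate 2) and 5 with the replicate block. The departure from the sum was called for 5 genes, and for 3 to 5 with a library left out (3 without SAFB1 KD replicate 2 or triple KD replicate 1). Of the 67 other pathway genes, 10 were called in SAFB1 KD, with a range of 3 to 11 when a library was left out, and 15 in SLTM KD, with a range of 9 to 16. The lowest values came without control replicate 2 or SAFB1 KD replicate 2 (3 each) and without SLTM KD replicate 3 (9). The causes were not tested.

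Replicate numbers are not stated to mark a shared culture, and the main fit did not use them. Same-numbered libraries correlated at -0.03 to 0.18 (median 0.10) in their deviations from the group means, over 0.1 in 9 of 18 pairs. Other-numbered libraries had a median of -0.04, with 0 of 36 pairs over 0.1. For 8 of 12 libraries the best match in every other group had their own number. Libraries of the same number thus shared some variation, whose source is not stated. Beside the count given above, the replicate block changed no count of the 10 genes by more than 1.5 times. Upper-quartile scaling moved the share of higher calls over all genes between SAFB1 KD and SLTM KD from 57.8% to 43.2%. Differences of -0.10 and 0.10 (AGO4 and AGO3, SAFB1 KD against SLTM KD), each with an SE of 0.04, were called only in some alternatives. DROSHA, at 0.08 with an SE of 0.02, was called in triple KD against SLTM KD. These values come from different comparisons, so that the part of the gene and that of the comparison cannot be told apart. The size of change that could be missed with 3 libraries a group was not tested.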
